A study of Glycine max with 6 samples.

Results

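The bZIP transcription factors described here are the 88 soybean probe sets whose annotation gives 1 gene symbol made of BZIP and a number. They stand for 57 genes, out of 37593 soybean probe sets and 6029 gene symbols on the array. The 6 Affymetrix soybean arrays, each hybridised with 1 sample in 1 colour, hold 3 samples of paraveinal mesophyll (PVM), the thin cell layer between palisade and spongy tissue, and 3 of palisade parenchyma (PP), the upper photosynthetic layer. Both layers were cut by laser microdissection from fixed, paraffin-embedded mature leaves of untreated growth-chamber soybean plants. The cells of each sample were pooled, the RNA was amplified before hybridisation, and the samples of a layer are labelled biological replicates. The sources used here give neither the cultivar nor the plant age, nor whether any PVM and PP samples shared a plant. The titles of the PP samples read PP1, and their source name and cell type say palisade. These labels were followed, although a free-text field speaks of paraveinal cells. The question the design poses for these genes is which of them give signal in each layer, and which differ between the layers. In such pooled samples, fewer cells of a type and less RNA per cell cannot be told apart.

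Proteins of the bZIP family bind DNA through a basic region and pair through a leucine zipper, as homodimers or heterodimers, and many plant members bind elements with an ACGT core such as the G-box. In Arabidopsis, members of the family act in abscisic acid and drought responses (the ABF or AREB group), in light responses (HY5), in defence (the TGA group, which works with NPR1), in the unfolded protein response of the endoplasmic reticulum, and in sugar and amino acid metabolism. The soybean numbers are names within soybean and do not correspond to the Arabidopsis numbers. For most of these genes the annotation gives nothing beyond the number.

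Markers of the labelled layers were checked first. All 23 tested probe sets of the storage genes VSPA, VSPB, LOXB1, LOX7 and LOX9 measured higher in PVM. Their median log2 difference was 1.96, and they summed to an intensity of 96495 to 108390 in PVM and of 42257 to 63721 in PP. Among 12 tested probe sets of photosynthesis markers such as CAB3 and the Rubisco activases, 4 were higher in PVM and 8 lower (2 and 10 without quantile normalization). Their median was -0.24 (-0.57 without quantile normalization). Their summed intensity was 66921 to 94012 in PVM and 108409 to 121994 in PP, so each layer gave strong signal for the markers of the other. The sucrose transporter SUT1 was the sole vascular marker found, with 2 of 3 probe sets higher in PVM and 1 lower, and no epidermis marker of the list was found under its symbol. Whether cells of other types were present in the samples, and what part they would have in the bZIP values, was not tested. PP arrays 1 and 2 correlated at 0.947 over the 68 tested bZIP probe sets, above the other 14 pairs of arrays. Those pairs ran from 0.699 to 0.858. Over all tested probe sets PP arrays 1 and 2 also stood apart, at 0.947 against 0.811 to 0.885 for the other pairs. Over the bZIP probe sets, pairs of PVM arrays ran from 0.699 (arrays 2 and 3) to 0.804. Pairs of a PVM and a PP array ran from 0.751 to 0.8497. The PVM arrays thus correlated no better with each other than with PP arrays.

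Most bZIP probe sets gave signal in both layers. A probe set was taken as above background on an array if it exceeded the 95th percentile of the 23350 probe sets carried there for other organisms. This limit lay at an intensity of 11 to 15.5 in PVM samples and 17.2 to 20.7 in PP samples. It was lower on every PVM array than on every PP array, so an equal intensity could count as above background in PVM alone. Of the 88, 56 (63.6%) were above background on all 3 PVM arrays and 51 (58.0%) on all 3 PP arrays, against 54.5% and 52.2% of all soybean probe sets. On all 6 arrays 49 were above background (55.7%, against 47.1% of all soybean probe sets), and on no array 8 (9.09%, against 18.3%). By array, 69, 66 and 69 bZIP probe sets were above background in PVM, against 66, 59 and 57 in PP. PP array 3 had the smallest number, and it also had the smallest share over all soybean probe sets, 58.4%.

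**Figure D1:**
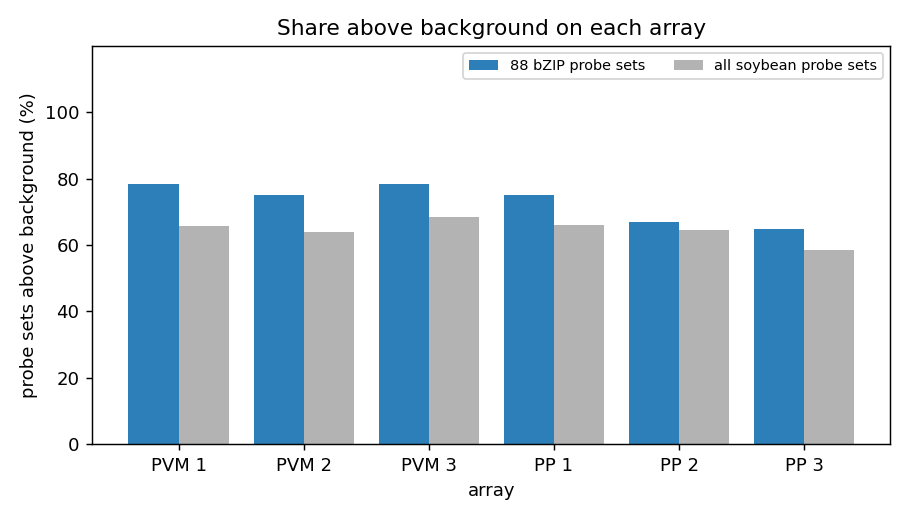
Share of probe sets above background (percent, vertical axis) on each of the 3 PVM and 3 PP arrays, for the 88 bZIP probe sets (blue) and all soybean probe sets (grey). The bZIP share is 78.4%, 75% and 78.4% on the PVM arrays and 75%, 67.0% and 64.8% on the PP arrays, above the grey bar on each array.

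By gene, 32 of 57 had a probe set above background on all arrays of PVM and one above background on all arrays of PP. These are BZIP1, BZIP21, BZIP28, BZIP36, BZIP37, BZIP38, BZIP46, BZIP48, BZIP50, BZIP54, BZIP55, BZIP59, BZIP68, BZIP71, BZIP77, BZIP80, BZIP87, BZIP89, BZIP94, BZIP95, BZIP98, BZIP101, BZIP105, BZIP108, BZIP109, BZIP110, BZIP114, BZIP117, BZIP121, BZIP122, BZIP124 and BZIP130. For 6 genes this held in PVM but not in PP, namely BZIP9, BZIP10, BZIP16, BZIP62, BZIP113 and BZIP125. For 2 it held in PP but not in PVM, namely BZIP63 and BZIP69. By probe set, 7.95% of bZIP were above background on all arrays of PVM and not of PP, against 7.39% of all soybean probe sets, and 2.27% the other way, against 5.15%. Of these 8 genes, BZIP62 alone had no PP array above background on that probe set. For the other 7 the layer with gaps was still above background on 1 or 2 of its arrays. BZIP10 counted as above background at 20.3 on PVM array 2 and as below it at 20.2 on PP array 3. Its log2 difference, PVM minus PP, was 0.08. A further 13 genes were above background on some arrays without filling either layer: BZIP35, BZIP47, BZIP58, BZIP61, BZIP70, BZIP72, BZIP81, BZIP83, BZIP85, BZIP90, BZIP111, BZIP112 and BZIP132. The probe sets counted for BZIP42, BZIP44, BZIP82 and BZIP126 were not above background on any array. Probe sets with several symbols were not counted, and one that lists BZIP126 beside BZIP124 was above background on all 6 arrays, so signal for BZIP126 cannot be settled here. Intensities of different probe sets do not rank genes by RNA level, because each probe set has its own affinity, and brightness serves below only to choose which probe sets are described.

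BZIP44, BZIP62 and BZIP132 belong to the soybean bZIP genes whose expression in Arabidopsis has been linked to salt tolerance and to altered abscisic acid sensitivity. The BZIP44 probe set measured 0.811, 4.19 and 12.7 on the PVM arrays and 14.4, 0.433 and 1.20 on the PP arrays, all at or below background. BZIP132 measured 117, 2.24 and 0.873 on the PVM arrays and 3.59, 25.4 and 19.7 on the PP arrays. Its signal came from PVM array 1 and PP array 2, so the layers overlapped, and it was too often below background to be tested.

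The comparison of the layers called no bZIP gene. Testing required signal above background on 3 or more of the 6 arrays, which left 68 bZIP probe sets for 47 genes among 25314 tested in all. None of the 68 passed an adjusted p under 0.05 in limma (Benjamini-Hochberg over the 25314), where 0.0435% of all tested probe sets passed, all of them higher in PVM. The smallest adjusted p of a bZIP probe set was 0.0897. At an unadjusted p under 0.05, 5 of 68 (7.35%) were higher in PVM and 2 (2.94%) lower, against 6.53% and 5.63% of all tested probe sets. The 5 became 3 when PVM array 1 was left out, 2 when PP array 1 was, and 1 when PP array 2 was. The 2 became 0 when PP array 1 was left out, and 1 when either PVM array 1 or PP array 3 was. After normalization the 3 PVM values lay wholly above the 3 PP values for 4 of the 68 (5.88%) and wholly below for 3 (4.41%), against 8.62% and 10.1% of all tested probe sets. These shares are near the background or below it.

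In size, 38 of the 68 bZIP probe sets measured higher in PVM and 30 lower, a share of 55.9% on the PVM side against 46.3% over all tested. The median log2 difference, PVM minus PP on the scale of log2(intensity + 16) after quantile normalization, was 0.13 for bZIP and -0.06 for all tested probe sets. With 1 probe set per gene, the brightest, 23 genes were higher in PVM and 24 lower, and the bZIP median was -0.03. The middle 50% of bZIP differences ran from -0.30 to 0.58, and those of all tested probe sets from -0.46 to 0.39. A log2 difference above 1 was found for 7 bZIP probe sets, where 8.69% of all tested lay, and one below -1 for 3, where 6.9% lay. The median standard error (SE) was 0.46 for bZIP and 0.45 over all tested, so that differences of ordinary size could not be told from the spread between arrays. The bZIP values varied more among PVM arrays than among PP arrays, with a median SD of 0.61 and 0.46 on the normalized log2 scale. All tested probe sets did so too (0.56 and 0.44). The PP spread includes PP arrays 1 and 2, which correlated at 0.947 over the tested bZIP probe sets.

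**Figure D2:**
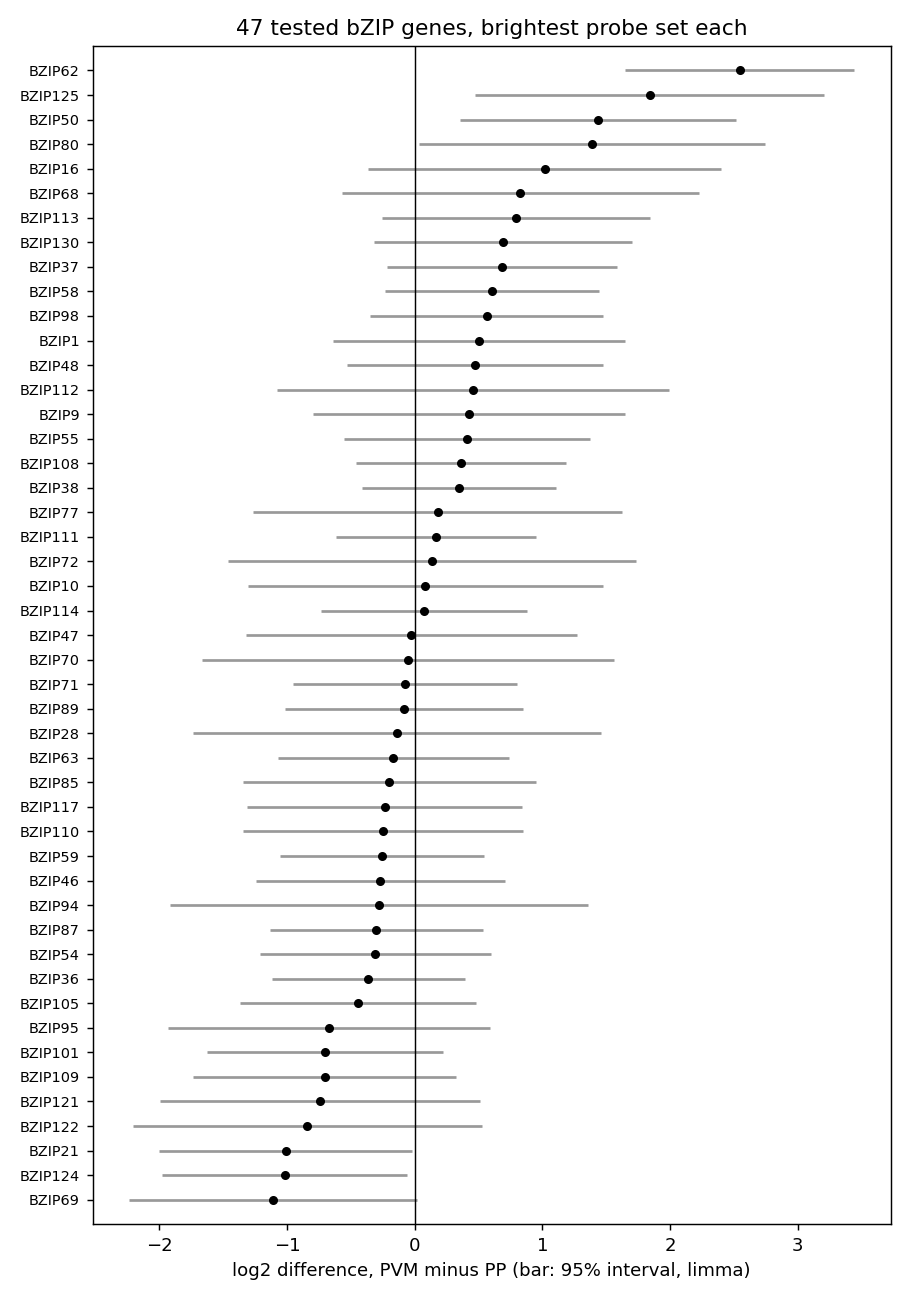
Log2 difference, PVM minus PP (horizontal axis, points), with its 95% interval from limma (bars) for the 47 tested bZIP genes, each at its brightest probe set. Intervals lie wholly above 0 for BZIP62, BZIP125, BZIP50 and BZIP80 and wholly below 0 for BZIP124 and BZIP21, before adjustment for the number of tests.

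BZIP62 had the largest difference toward PVM. It measured 136, 158 and 85.0 on the PVM arrays and 9.42, 1.82 and 11.1 on the PP arrays. Every PVM array was above background and every PP array was below it. On this probe set PVM was therefore at least 3.89-fold higher, taking the background where a PP array lay below it. The limma adjusted p was 0.0897, with 3 of 3 PVM arrays higher. This probe set met the filter for testing through its PVM arrays alone, so its p adds no independent support. Over 18 other settings of the fit the adjusted p of BZIP62 ran from 0.0563 to 0.384. Its other probe sets did not show the same signal: 1 measured 3.65, 111 and 11.3 in PVM and 20.4, 7.36 and 8.49 in PP, and the other 4.28, 51.4 and 3.63 in PVM and 8.12, 7.63 and 0.299 in PP. Both were highest on PVM array 2, had at most 2 arrays above background and were not tested. BZIP61, whose probe set shares its cluster number with that of BZIP62, measured 9.52, 9.57 and 15.6 in PVM and 0.527, 0.599 and 14.3 in PP, and was above background on PVM array 3 alone.

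BZIP125 measured 38.2, 159 and 180 on the PVM arrays and 44.5, 10.9 and 11.8 on the PP arrays. PP array 1 lay above PVM array 1, so the layers overlapped, and PP arrays 2 and 3 were below background. Its log2 difference was 1.84 (SE 0.58, limma adjusted p = 0.294). Over the other settings this difference ran from 1.07 to 2.60.

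BZIP50 is also known by the synonym bZIP49 in RefSeq. It measured 1617, 1550 and 1008 on the PVM arrays and 342, 357 and 974 on the PP arrays. The layers did not overlap, but PP array 3 came close to PVM array 3. Its log2 difference was 1.44 (SE 0.46, limma adjusted p = 0.297), a 2.71-fold ratio. It ran from 1.19 to 1.89 over the 17 other settings that kept this probe set. The name of this probe set marks shared sequence, so the setting without marked probe sets dropped it. The second probe set of BZIP50, without that mark, measured 587, 93.8 and 306 in PVM and 64.2, 38.0 and 689 in PP. There PP array 3 was the highest of all 6, and the difference was 0.99 (SE 1.03).

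BZIP80 was the gene for which 2 probe sets each had an unadjusted p under 0.05. The brighter measured 943, 223 and 647 on the PVM arrays and 221, 245 and 103 on the PP arrays, with PVM array 2 inside the PP range. It differed by 1.39 (SE 0.58, limma adjusted p = 0.405). The other measured 485, 433 and 355 in PVM and 130, 131 and 311 in PP, with no overlap, and differed by 1.12 (SE 0.42, limma adjusted p = 0.357). Neither passed the threshold.

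The remaining genes named on the PVM side had an unadjusted p above 0.05 and overlapping layers after normalization. BZIP37 measured 221, 146 and 286 in PVM and 126, 84.7 and 153 in PP, a difference of 0.69 (SE 0.38). BZIP113 measured 19.8, 49.0 and 21.3 in PVM and 22.2, 16.0 and 1.46 in PP (0.80, SE 0.45). BZIP16 measured 115, 48.6 and 31.3 in PVM and 25.7, 2.72 and 41.1 in PP (1.02, SE 0.59). These last were dim, and PP arrays 2 and 3 for BZIP113 and PP array 2 for BZIP16 were below background. BZIP58 measured 42.4, 23.4 and 14.9 in PVM and 17.2, 12.1 and 13.7 in PP (0.61, SE 0.36), with PVM array 3 and PP arrays 2 and 3 below background. The adjusted p of these 4 genes was 0.523 to 0.549 in limma. With an array left out, the difference ran from 0.45 to 0.90 for BZIP37, from 0.45 to 1.02 for BZIP113, from 0.53 to 1.45 for BZIP16 and from 0.40 to 0.88 for BZIP58.

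**Figure D3:**
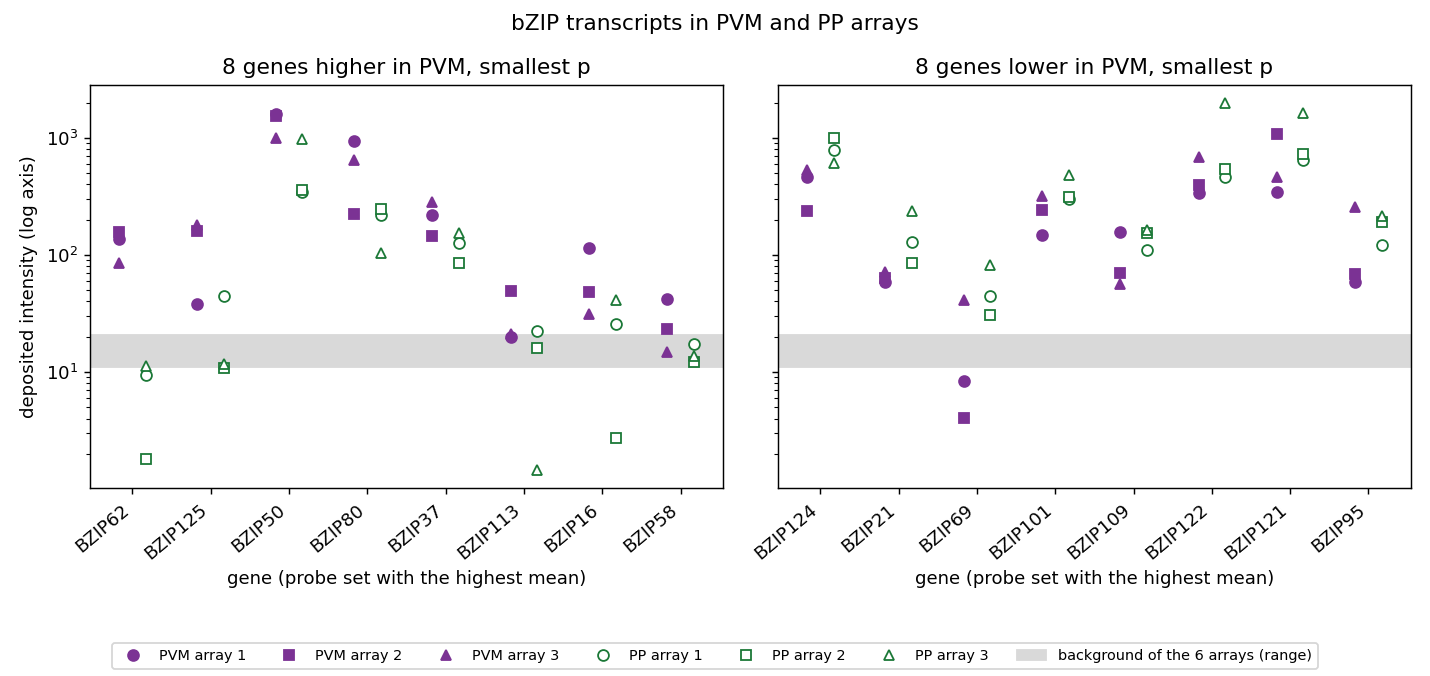
Deposited intensity (log axis) of the 8 bZIP genes with the smallest p on the PVM side (left panel) and the 8 on the PP side (right panel). Filled purple symbols are the 3 PVM arrays, open green symbols the 3 PP arrays, and the grey band spans the background limits of the 6 arrays, 11 to 20.7. BZIP62 is clear of the band on the 3 PVM arrays, at 85.0 to 158, and within or under it on the 3 PP arrays, at 1.82 to 11.1.

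On the PP side, BZIP124 and BZIP21 were the members with an unadjusted p under 0.05. BZIP124 measured 461, 238 and 530 on the PVM arrays and 793, 995 and 616 on the PP arrays. The layers did not overlap, and the log2 difference was -1.02 (SE 0.41, limma adjusted p = 0.389). Another probe set, listing BZIP124 beside BZIP126, measured 1509 ± 591 in PVM and 2231 ± 106 in PP (SD). It was not counted for either gene, and its difference was smaller, -0.53 (limma adjusted p = 0.674). BZIP21 measured 58.5, 63.3 and 71.8 on the PVM arrays and 128, 84.6 and 238 on the PP arrays. The PVM values lay close together and under all PP values, with a difference of -1.01 (SE 0.42, limma adjusted p = 0.407). The BZIP124 difference of -1.02 became -0.68 without PVM array 2, and that of BZIP21 was -0.62 without PP array 3.

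BZIP69 had the lowest difference of all members, -1.11 (SE 0.48, limma adjusted p = 0.418). It measured 8.30, 4.04 and 40.9 in PVM and 45.0, 30.7 and 81.8 in PP. PVM array 3 lay within the PP range, whereas PVM arrays 1 and 2 were below background, so the size depends on values near the floor. Over the other settings it ran from -1.85 to -0.54.

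The other 5 genes named on the PP side overlapped between the layers and had adjusted p values of 0.525 to 0.673 in limma. BZIP101 measured 149, 242 and 317 in PVM and 298, 314 and 482 in PP (-0.70, SE 0.40). BZIP109 measured 158, 70.7 and 56.8 in PVM and 109, 154 and 165 in PP (-0.70, SE 0.44). For both genes 1 PVM array reached into the PP range. BZIP122 measured 336, 394 and 682 in PVM and 464, 538 and 1977 in PP (-0.84, SE 0.59). BZIP121 measured 345, 1073 and 462 in PVM and 644, 728 and 1648 in PP (-0.74, SE 0.54). In these 2 genes PP array 3 was far above the other PP arrays, and without it the differences were -0.23 and -0.36. BZIP95 measured 58.8, 69.3 and 257 in PVM and 121, 192 and 213 in PP, a difference of -0.67 (SE 0.54) with PVM array 3 the highest of the 6. It was -1.23 without that array and -0.30 without PVM array 1. With an array left out, BZIP101 ran from -0.94 to -0.41 and BZIP109 from -1.08 to -0.36.

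The genes chosen for a bright probe set included BZIP59, BZIP105 and BZIP89, whose layers overlapped. On its brightest probe set BZIP59 measured 2085, 2667 and 1619 in PVM and 2371, 3502 and 2637 in PP, with a difference of -0.26 (95% interval -1.05 to 0.54). The 3 probe sets of BZIP59 averaged 2480, 1318 and 69.4 over the 6 arrays, so its brightness depends on the probe set. The second measured 1170, 1370 and 1374 in PVM and 1439, 1255 and 1297 in PP. That difference was 0.02 (95% interval -0.67 to 0.72), and its sign turned without quantile normalization (-0.029) and with each array centred on its soybean probe sets (-0.057). BZIP105 measured 820, 949 and 804 in PVM and 693, 1311 and 1782 in PP (-0.44, 95% interval -1.37 to 0.48), with PP arrays both below and above the PVM range. BZIP89 measured 519, 1223 and 898 in PVM and 741, 908 and 1005 in PP (-0.09, 95% interval -1.02 to 0.85), and the PP values lay inside the PVM range. For 6 of the 68 probe sets the 95% interval fell wholly between -1 and 1, belonging to BZIP28, BZIP38, BZIP59, BZIP71, BZIP111 and BZIP114. For the other 62 the interval reaches a 2-fold difference in at least one direction. The BZIP111 probe set was dim, above background on 2 PVM arrays and 1 PP array, and differences understate the change of dim probe sets. BZIP28, BZIP38, BZIP59, BZIP71 and BZIP114 each had another tested probe set whose interval reached past these limits, as BZIP59 did at -2.30 to 1.62.

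Where a gene had several tested probe sets, they often differed from each other as much as the layers did. Of 16 genes with more than 1 tested probe set, 7 were higher in PVM on each of them, 3 lower on each, and 6 of mixed sign. The 7 were BZIP1, BZIP38, BZIP50, BZIP55, BZIP77, BZIP80 and BZIP114. The 3 were BZIP87, BZIP101 and BZIP105, the last with -0.44, -0.42 and -0.36 on its 3 probe sets. The middle of these was the third member whose normalized PVM values lay wholly below those of PP.

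The genes of mixed sign were BZIP28, BZIP59, BZIP71, BZIP94, BZIP108 and BZIP110. BZIP71 differed by -0.07 on a bright probe set and by 0.77 on another, which measured 289, 22.4 and 369 in PVM and 81.4, 86.5 and 79.7 in PP, so that PVM array 2 stood apart. The 0.77 was 1.71 without PVM array 2 and 0.21 without PVM array 3. BZIP94 differed by -0.28 on a probe set that ran from 143 to 942 within PVM. Its other probe set measured 273, 398 and 245 in PVM and 109, 212 and 185 in PP, with no overlap and a difference of 0.70 (limma adjusted p = 0.508). BZIP108 differed by 0.36, -0.50 and 0.58. BZIP110 differed by 0.77, 0.32 and -0.25. BZIP28 differed by 0.12 and -0.14, the second turning to 0.011 without quantile normalization.

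**Figure D4:**
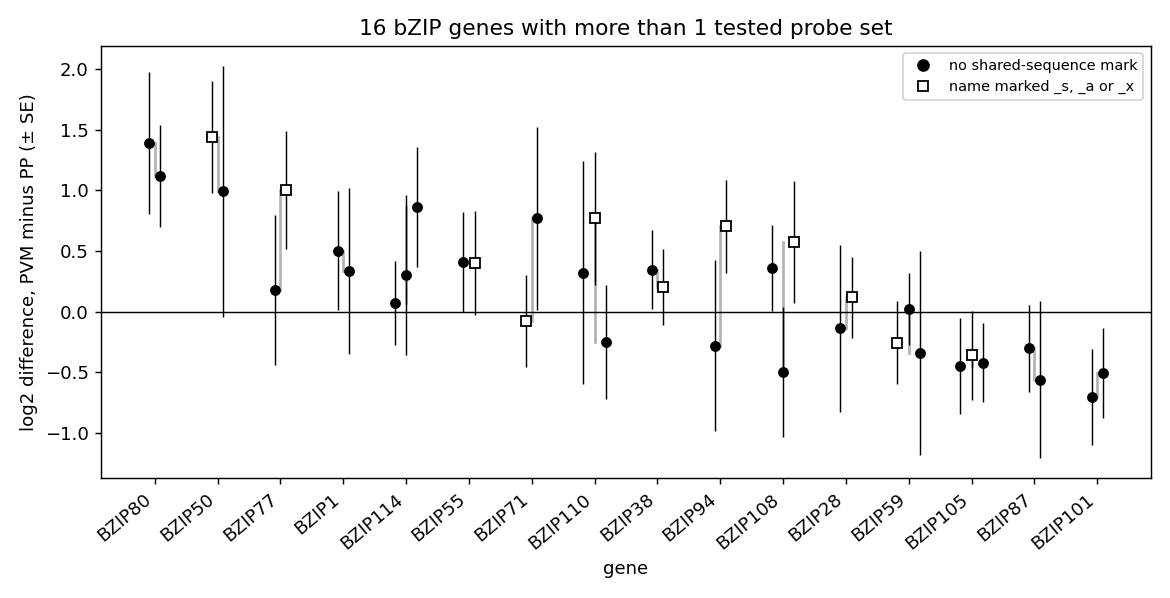
Log2 difference, PVM minus PP, with its SE (vertical axis) for each tested probe set of the 16 bZIP genes that have more than 1. Filled circles are probe sets with no mark for shared sequence in the name, and open squares those marked _s, _a or _x. BZIP80 and BZIP50 lie above 0 on both probe sets (0.99 to 1.44), whereas 6 genes have probe sets on both sides of 0.

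Some probe sets of different genes share a cluster number in their names, so they may detect related transcripts. BZIP37 and BZIP38 were both higher in PVM, by 0.69 for BZIP37 and by 0.20 for the BZIP38 probe set of that cluster. BZIP109 differed by -0.70, beside the mixed values of BZIP108 in the same cluster. BZIP111 differed by 0.17 and the BZIP110 probe set of its cluster by 0.32.

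BZIP1 and BZIP36 are given for their synonyms, outside the rule for named genes. BZIP1 carries the synonym AREB1, the name used in Arabidopsis for factors that bind abscisic acid-responsive elements. Its brighter probe set measured 149, 49.2 and 221 in PVM and 91.0, 55.7 and 98.9 in PP (0.50, SE 0.49), with PVM array 2 below the PP values. BZIP36 carries the synonym SOYSTF1A, after STF1, a soybean protein related to HY5. BZIP36 measured 85.3, 77.5 and 63.8 in PVM and 86.8, 106 and 85.4 in PP. All PVM values lay under the PP values as deposited but not after normalization, and the difference was -0.36 (SE 0.32, limma adjusted p = 0.707).

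Genes with bZIP names of another form, and genes of pathways in which bZIP proteins act in other plants, were read from lists of symbols. Of 4 tested probe sets for other bZIP names, 3 were higher in PVM and 1 lower, and none passed the threshold. On its tested probe set, G-box factor GBF2 measured 15.0 ± 1.74 in PVM and 0.840 ± 0.0649 in PP (SD, n = 3 arrays each). All PVM arrays were above background by little and all PP arrays below it, so no fold is given (limma adjusted p = 0.261). A second GBF2 probe set, not tested, measured 9.84 ± 9.48 in PVM and 13.4 ± 8.48 in PP, above background on 1 array of each layer. STF2, the partner gene of BZIP36 by its synonym SOYSTF1B, measured 409 ± 223 in PVM and 589 ± 198 in PP on its brighter probe set (-0.66), and its second probe set had the opposite sign. SOYGBFA, another G-box factor, differed by 0.11.

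The list of abscisic acid and drought genes held 16 tested probe sets, 8 higher in PVM and 8 lower (9 and 7 without quantile normalization). None passed the threshold, and 1 had an unadjusted p under 0.05. That was LEA-2, named as a late embryogenesis abundant gene, at 1081 ± 86.6 in PVM and 382 ± 308 in PP (1.73, limma adjusted p = 0.262). DREB1, of a family that binds drought-responsive elements, measured 371 ± 191 in PVM and 655 ± 196 in PP (-0.91), and the kinase SNRK1 116 ± 18.5 in PVM and 151 ± 14.5 in PP (-0.45). The pattern RAB of this list also took in small GTPases such as RAB2.

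The endoplasmic reticulum folding list, whose genes in Arabidopsis include targets of bZIP factors of the unfolded protein response, had 13 of 16 tested probe sets, for 9 genes, higher in PVM, against 46.3% of all tested probe sets, and 3 lower. Its median log2 difference was 0.43, against -0.06 over all tested. The list was chosen with earlier results of these data known, and several of its genes have more than 1 probe set. Its lean toward PVM is therefore a description and adds no independent support. None passed the threshold, and 3 had an unadjusted p under 0.05, all higher in PVM, where 6.53% of all tested lay. Of these, 2 belong to the chaperone BIP4, the one with the smaller p at 701 ± 325 in PVM and 143 ± 29.0 in PP (2.01, limma adjusted p = 0.179). The other belongs to NRP-A, at 183 ± 96.9 in PVM and 58.9 ± 16.5 in PP (1.25, limma adjusted p = 0.338). The pattern NRP of this list took in NRP-A and NRP-B, whose symbols and synonyms name no folding role. All their tested probe sets were among those higher in PVM. A disulfide isomerase, LOC100170705 (synonym PDIL-1), measured 1049 ± 252 in PVM and 632 ± 34.0 in PP (0.68). Its brighter probe set measured 1627 ± 57.5 in PVM and 1431 ± 202 in PP (0.26).

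Among 6 tested probe sets of light signalling genes, 5 were lower in PVM and 1 higher, with a median of -0.24, and none passed the threshold. The phytochrome PHYA measured 434 ± 125 in PVM and 489 ± 27.0 in PP (-0.28), and the cryptochrome LOC100808627 (synonym GmCRY2c) 51.6 ± 16.2 in PVM and 72.8 ± 26.8 in PP (-0.45). The cryptochrome LOC100786551 (synonym GmCRY1c1) differed by 1.06 on 1 probe set and by -0.21 on its brighter one. The list of NPR and PR1 genes had 2 tested probe sets, both of PR1-7, a pathogenesis-related protein 1 gene. One of them passed the threshold, with 163 ± 10.6 in PVM and 3.83 ± 2.93 in PP (limma adjusted p = 0.0363). The other measured 283 ± 218 in PVM and 2.98 ± 3.97 in PP (limma adjusted p = 0.160). No PP array reached background on either, so both met the filter for testing through their PVM arrays alone. On the called probe set PVM was at least 5.13-fold higher. No other probe set of these 5 lists was called. The PR1-7 call did not hold with the replicate block or with PP arrays 1 and 2 averaged, where no probe set of the array was called, nor when any array other than PVM array 2 was left out, where again none was.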

How the data were processed

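The deposited values are probe-set intensities on a linear scale, 1 per probe set and array. The sources used here name no program, summarisation or scaling for them. Per the labels' protocols, RNA was biotin-labelled by the one-cycle Affymetrix method. Of 61170 probe sets, 37593 are for soybean, and 227 control, ribosomal and pathogen probe sets were not tested. Intensities were taken as log2(intensity + 16) and quantile-normalized over all probe sets, and differences understate the change of dim probe sets. Fits used limma 3.58.1 in R 4.3.3 (lmFit, eBayes), 2-sided and without covariates. The Benjamini-Hochberg adjustment was made over 25314 probe sets. The number of arrays limits the precision. The fit was first tested on simulated data, where it recovered 22% of changes of log2 2 and 48.1% of changes of log2 3.

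Symbols came from the platform annotation. Of the 57 bZIP genes, 54 matched RefSeq's Glycine_max_v4.0 table, and BZIP54, BZIP83 and BZIP95 kept the array's name. No coordinates are printed, since the values come with no genome build. Values were given in every array for the 8 genes with the smallest p in each direction, the 6 brightest and genes seen in 1 layer only, each at the probe set with the highest mean, and differences for genes with tested probe sets of mixed sign. BZIP1, BZIP36, BZIP44, BZIP61 and BZIP132 were added outside this rule. Lists named up to 3 genes with the smallest p. The members and lists were chosen with earlier results of these data known. Alternatives covered the replicate block, normalization, filter, pseudocount, variance prior, array weights, shared-sequence marks, averaging PP arrays 1 and 2, each array left out, 1 probe set per gene and the background percentile.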

Additional observations from a re-analysis of the deposited data

How the results depend on the processing

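No bZIP probe set passed the threshold under any of 18 alternatives of the fit, and 547 of 572 values for the 33 named probe sets kept their direction. Over all tested probe sets the main count of 11 calls became 0 with the replicate block, 5 with no filter, 1 with a pseudocount of 1, 57 with one of 64, 149 with the intensity trend and robust prior, 0 with PP arrays 1 and 2 averaged, 4 with 1 probe set per gene, and 0 to 3 with an array left out. The bZIP median of 0.13 was -0.028 with 1 probe set per gene and 0.08 to 0.15 with an array left out. The probe sets that turned in sign were bright ones with little difference and less bright ones of BZIP59 and BZIP110. Without quantile normalization BZIP28 was at 0.011 and BZIP59 at -0.029. BZIP59 was at -0.057 with centring. With array weights BZIP59 was at -0.012, BZIP71 at 0.11 and BZIP94 at 0.065. With PP arrays 1 and 2 averaged a dim BZIP59 probe set was at 0.031 and a BZIP110 probe set at -0.074. With an array left out, the ranges were -0.64 to 0.68 and -0.066 to 0.32 for BZIP28, -1.08 to 0.35 and -0.037 to 0.10 for BZIP59, -0.31 to 0.13 for BZIP71, -1.02 to 0.29 for BZIP94, -0.35 to 0.26 for BZIP89, and -0.24 to 1.18 and -0.66 to 0.10 for BZIP110. The causes were not tested. The count of bZIP probe sets above background on all arrays of a layer was 54 to 59 in PVM and 47 to 55 in PP with the 99th and 90th percentiles. With an array left out, a change chosen after seeing the data, it was 59 to 62 in PVM and 52 to 57 in PP. Deviations of same-numbered PVM and PP arrays correlated at 0.02, 0.03 and 0.05, too little to pair them, although all 6 arrays correlated best with their own number. The replicate block changed no bZIP call. With 3 arrays a layer, and with 20 of the 88 probe sets too close to background to be tested, precision was limited: the 95% interval reached 2-fold for all but 6 of 68 probe sets.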

Other observations

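BZIP53B, whose symbol has a letter after the number, was not counted among the members. Its probe set measured 459 ± 114 in PVM and 664 ± 42.5 in PP (SD, n = 3 arrays each), with a log2 difference of -0.60 (limma adjusted p = 0.516). A further 5 probe sets carry several symbols of which at least 1 is BZIP with a number. They cannot be assigned to 1 gene. Their differences ran from -0.53 to 0.27, and none passed the threshold. BZIP90 had 4 probe sets, the largest number of any member. On 2 of them PVM array 1 stood far above the other 5 arrays, at 80.6 and 53.4 against at most 10.3, and none of the 4 could be tested.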
